A study of Mus musculus with 3 samples.

Results

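Keratins are the intermediate filament proteins of epithelia, and 10 keratin genes, chosen by symbol, were followed here through the epithelium of the aged mouse thymus. They were the type II keratins Krt5, Krt8, Krt7 and Krt80 and the type I keratins Krt14, Krt18, Krt19, Krt17, Krt10 and Krt15, which are 10 of 32293 features in the single-cell RNA-sequencing count tables. CD45- stroma, the nonhematopoietic fraction, was taken from the thymus of C57BL/6 mice aged 20 months that had received no treatment. There were 3 libraries, each alone in its group (n = 1): female mice with the Foxn1 lineage trace (Foxn1Lin female), male mice with that trace (Foxn1Lin male) and wild-type male mice (wild type). The trace uses a Cre recombinase driven by Foxn1, the master regulator of thymic epithelial cells (TECs), to turn on a tdTomato reporter for good in cells that have expressed Foxn1 and in their progeny. Per the labels' protocol, each library came from thymi pooled from several mice, so the spread between animals cannot be seen, and the protocol names female mice throughout. The labels disagree on the wild type, titled CD45- but given CD45-PECAM1+ as cell type, and its library held 917 epithelial and 1713 fibroblast barcodes as defined here. With 1 library per group, no difference between libraries was tested, and all tests compare sets of barcodes within libraries. Values given in a row are in the order Foxn1Lin female, Foxn1Lin male, wild type.

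A keratin filament is built from pairs of 1 type I and 1 type II keratin, and a chain without its partner is broken down. KRT8 and KRT18 are the pair of simple epithelia and are known in the thymus from the cortex. KRT5 and KRT14 are the pair of basal cells in stratified epithelia and are known from the medulla. KRT7 and KRT19 belong to ducts and mesothelium, KRT17 and KRT15 to basal and appendage epithelium, KRT10 to keratinizing suprabasal cells, and KRT80 to differentiating epithelium.

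The members lie in both keratin gene clusters of the mouse genome (GENCODE vM21 on GRCm38). Those on chromosome 11 are Krt10, Krt15, Krt19, Krt14 and Krt17, all on the minus strand and within 876 kb, with Krt14 at chr11:100203162-100207548 and Krt19 at chr11:100140810-100148665. Those on chromosome 15 are Krt80, Krt7, Krt5 and Krt8 and the type I gene Krt18, within 685 kb. Krt8 (chr15:101996698-102004482, minus strand) and Krt18 (chr15:102028180-102032027, plus strand) are neighbors that point away from each other, with 23.7 kb between them, and Krt5 is at chr15:101707070-101712898 on the minus strand. RefSeq promoter windows on GRCm38.p6, from 250 bases before to 50 after the start, were available for 6 of the 10 members (Krt5, Krt8, Krt7, Krt14, Krt18 and Krt10). Those of Krt8 and Krt18, neighbors with like changes in several comparisons, and of Krt5, which had the largest rise of the members in the Ccl21a gate, are shown on the strand of the gene. Capitals mark matches on either strand to TATAAA or CCACCC, the letters of a TATA box and of a binding site of KLF factors.
Krt5 (chr15:101712856-101713155, minus strand): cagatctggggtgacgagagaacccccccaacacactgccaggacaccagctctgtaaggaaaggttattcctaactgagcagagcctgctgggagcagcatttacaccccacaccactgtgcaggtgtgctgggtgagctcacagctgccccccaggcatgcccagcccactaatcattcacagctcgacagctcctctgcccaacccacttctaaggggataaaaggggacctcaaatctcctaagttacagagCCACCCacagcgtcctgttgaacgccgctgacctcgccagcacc
Krt8 (chr15:102004293-102004592, minus strand): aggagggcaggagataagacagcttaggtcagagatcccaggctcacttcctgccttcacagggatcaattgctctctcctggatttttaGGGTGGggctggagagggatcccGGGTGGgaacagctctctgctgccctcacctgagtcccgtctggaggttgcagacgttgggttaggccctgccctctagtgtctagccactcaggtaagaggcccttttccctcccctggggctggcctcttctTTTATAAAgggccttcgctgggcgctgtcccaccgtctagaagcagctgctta
Krt18 (chr15:102027966-102028265, plus strand): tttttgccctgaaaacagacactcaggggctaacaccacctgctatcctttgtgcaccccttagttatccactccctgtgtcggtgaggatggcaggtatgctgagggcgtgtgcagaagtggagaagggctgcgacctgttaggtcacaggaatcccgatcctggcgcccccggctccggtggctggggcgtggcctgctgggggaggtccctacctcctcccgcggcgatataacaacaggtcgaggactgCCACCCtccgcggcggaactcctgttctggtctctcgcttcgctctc
TATAAA was present in the window of Krt8, where it matches on both strands over overlapping bases, and not in those of Krt5 and Krt18, and 13.6% of all 32851 RefSeq windows hold it. CCACCC was present in all 3 windows, in that of Krt8 at 2 places, and 31.5% of all windows hold it. TGANTCA, the site of AP-1 factors, was in none of the 6 windows (7.81% of all), nor was AACNGGTT, the site of grainyhead factors (2.09% of all). RefSeq places the starts of Krt8 and Krt18 inside the GENCODE genes, so part of each window is transcribed in that annotation. The window listed for Krt14 lies wholly inside the GENCODE gene and is not shown.

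Epithelial barcodes were those with at least 2 unique molecular identifiers (UMIs) of Epcam, which encodes an epithelial adhesion molecule, and none of Pecam1 or Pdgfra, which mark endothelial cells and fibroblasts. There were 408, 436 and 917 of them among 8616, 3583 and 5478 called barcodes. Their median depth was 11138, 12669.5 and 16836 UMIs. Within them, 4 gates were set on the UMIs of 1 or 2 genes and are called by them. At least 2 Psmb11 UMIs (a proteasome subunit of cortical TECs) held 62, 13 and 71 barcodes, and at least 2 Aire UMIs (the regulator of tissue-restricted genes in medullary TECs) 99, 83 and 206. At least 10 Ccl21a UMIs (a chemokine of medullary TECs) held 56, 86 and 143, and at least 3 Cldn3 and Plet1 UMIs together (markers of age-associated TECs in the study) 96, 107 and 241. The gates overlap, with 46, 44 and 78 barcodes in several of them, and 142, 194 and 340 barcodes were in none. Of marker genes other than the gate genes, 6 of 7 tested for cortical TECs were higher in the Psmb11 gate and 3 of 3 for Aire-expressing medullary TECs in the Aire gate. None of 3 for the other medullary TECs passed the test in the Ccl21a gate. Ungated barcodes were shallower (medians of 5900.5, 8257 and 11097 UMIs) than those of each gate, in every library. Levels are UMIs summed over a set and given per 1e6 UMIs of that set (CPM), and they are not compared between genes.

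Krt8 and Krt18 were found in most epithelial barcodes, and Krt17 in 48.2%, 50.4% and 33.3%. For shares, each barcode was thinned to 2000 UMIs and shallower ones left out (16, 19 and 29). Krt8 was detected in 79.8%, 79.4% and 74.1% of these barcodes, and Krt18 in 74.2%, 75.8% and 66.9%. Krt5 was found in 20.9%, 30.0% and 33.8%, and Krt14 in 19.1%, 23.5% and 17.6%. Krt7 was seen in 16.1%, 20.4% and 14.1%, and Krt19 in 9.18%, 7.91% and 5.41%. The 3 least detected members were Krt10, between 3.83% and 4.56% of barcodes, Krt15, between 0.901% and 2.55%, and Krt80, between 0.240% and 1.28%. Without thinning, the shares of Krt8 were 92.9%, 93.8% and 94.98% and those of Krt5 38.5%, 51.4% and 53.5%. All keratin genes listed here together held 6939, 6174 and 4613 CPM, and the 10 members made up 94.5%, 97.04% and 95.4% of these keratin UMIs.

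The background was read in endothelial barcodes (at least 2 Pecam1 UMIs and no Epcam) and fibroblast barcodes (at least 2 Pdgfra UMIs and no Epcam), which should lack keratins. Krt8 was found in 7.69%, 1.60% and 2.34% of endothelial barcodes (median depths of 4404, 7674.5 and 7314.5 UMIs), thinned in the same way, and in 6.03%, 0.815% and 2.90% of fibroblast barcodes (medians of 7516, 9572.5 and 8312 UMIs). Krt18 was found in 12.9%, 1.72% and 1.75% of endothelial barcodes. Both shares were highest in Foxn1Lin female and far under those of epithelial barcodes. In every library, the lower bound of the exact 95% binomial (Clopper-Pearson) interval of the epithelial share lay above the upper bounds of both backgrounds for 7 of the 10 members. The other 3, Krt10, Krt15 and Krt80, did not stand clear of the background in every library at this depth. Intervals cover counting error only. In uncalled barcodes, Krt8 was at 580.5, 773 and 717 CPM and Krt18 at 857, 914 and 634 CPM, above their levels in endothelial and fibroblast barcodes of the same library.

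**Figure D1:**
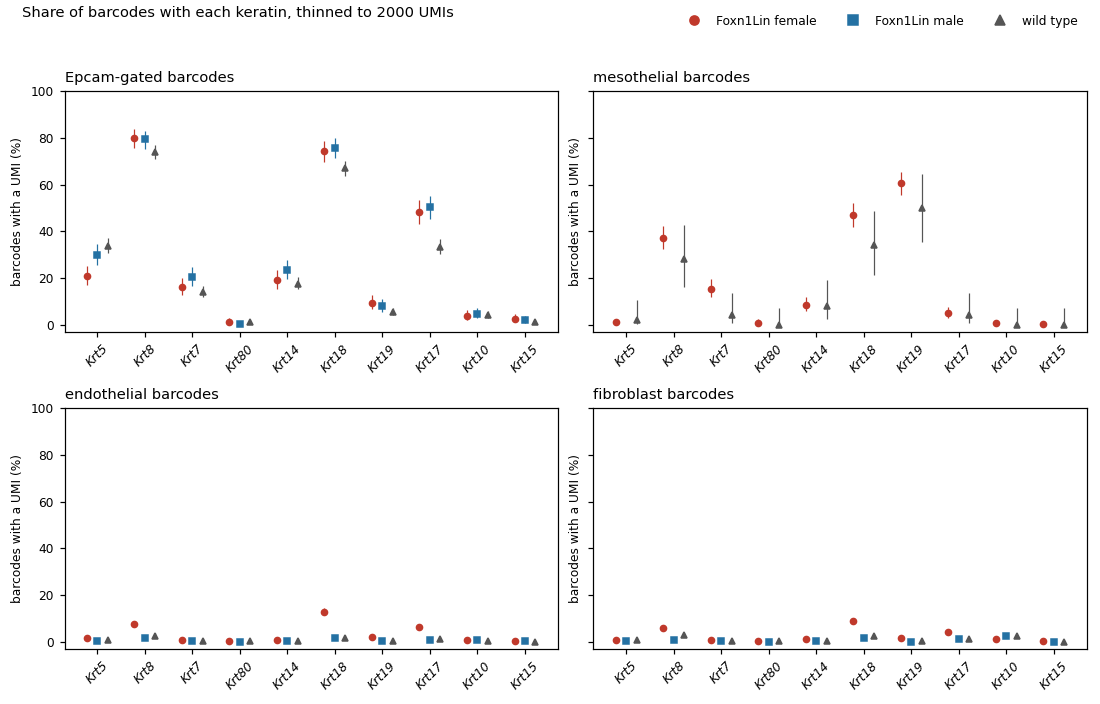
Share of barcodes with at least 1 UMI of each keratin after thinning to 2000 UMIs (y axis, percent), in epithelial, mesothelial, endothelial and fibroblast barcodes, 1 point per library with its exact 95% binomial interval. Krt8 and Krt18 reach the highest shares in epithelial barcodes, Krt19 the highest in mesothelial barcodes, and nearly all shares in endothelial and fibroblast barcodes are low, the highest being 12.9% for Krt18 in Foxn1Lin female.

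The order of the levels over the 4 gates and the ungated barcodes differed between members. The median over the 3 libraries is given with the range, as a description. Krt5 stood at 1150.3 CPM (1063 to 1154) in the Ccl21a gate, 380.3 (269 to 412) in the Cldn3+Plet1 gate, 329.9 (202 to 342) in the Psmb11 gate, 235 (146 to 337) outside the gates and 147 (56.2 to 248) in the Aire gate. Krt14 stood at 754 CPM (389.8 to 799) in the Ccl21a gate, 271 (109 to 336) in the Cldn3+Plet1 gate, 165 (134 to 198) in the Aire gate, 99.1 (39.3 to 162) outside the gates and 69.5 (66.4 to 111) in the Psmb11 gate. For both, the Ccl21a gate lay above the range of the next set, and the sets after it overlapped with their neighbors. Krt8 stood at 2609 CPM (2322 to 3051) in the Psmb11 gate, 2475 (2468 to 2689) in the Cldn3+Plet1 gate, 1836 (1177 to 1919.8) in the Ccl21a gate, 1052 (871 to 1309) outside the gates and 952 (893 to 1215) in the Aire gate, and the ranges of the second and the third did not overlap. Krt18 stood at 3590.1 CPM (3401 to 5981) in the Psmb11 gate, 2788 (2527 to 3270.2) in the Cldn3+Plet1 gate, 2133 (1237 to 3461) in the Ccl21a gate, 1449 (878 to 1638) outside the gates and 511 (430.0 to 539) in the Aire gate, where the lowest set was clear of all others and the highest of all but the Ccl21a gate. In Foxn1Lin male, 1 barcode held 32.2% of the Krt18 UMIs of the Psmb11 gate. Without it the level there was 3065 CPM, within the range of the Cldn3+Plet1 gate. A barcode with as many Krt18 UMIs (445) led the Cldn3+Plet1 gate of that library, and without it that level was 3226 CPM. Krt8 and Krt18, the simple pair, thus had the same order of sets by median. Krt7 stood at 160.2 CPM (134 to 334) in the Ccl21a gate, 128 (124 to 133) in the Psmb11 gate, 118 (104 to 172) in the Cldn3+Plet1 gate, 72.8 (65.0 to 127) in the Aire gate and 66.9 (62.1 to 123) outside the gates, and the first set was clear of the second but not of the third. Krt17 stood at 1897 CPM (956 to 2325) in the Ccl21a gate, 1191 (806 to 1226) in the Aire gate, 914 (469 to 1582) in the Psmb11 gate, 786 (441 to 1041) in the Cldn3+Plet1 gate and 541 (219 to 765) outside the gates, with overlap at every step. Krt19 stood at 98.2 CPM (68.8 to 98.8) in the Cldn3+Plet1 gate, 53.8 (47.0 to 148) outside the gates, 25.9 (19.7 to 29.3) in the Psmb11 gate, 24.5 (10.6 to 36.6) in the Aire gate and 22.3 (20.0 to 58.8) in the Ccl21a gate, and the ungated barcodes were clear of the Psmb11 and Aire gates but not of the Ccl21a gate. The 148 CPM came from Foxn1Lin female, where 1 ungated barcode with 73 Upk3b UMIs held 62.7% of the Krt19 UMIs, and without it the level was 57.5 CPM. Krt19 was the sole member whose lowest median was in the Ccl21a gate. Among the members with few UMIs, Krt15 ran from 38.8 CPM in the Ccl21a gate to 1.33 in the Psmb11 gate, and the last was clear of the ungated barcodes but not of the Aire gate. Krt10 ran from 46.0 CPM outside the gates to 15.1 in the Aire gate, and Krt80 from 13.0 CPM in the Cldn3+Plet1 gate to 0.663 in the Psmb11 gate, each with overlap at every step.

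**Figure D2:**
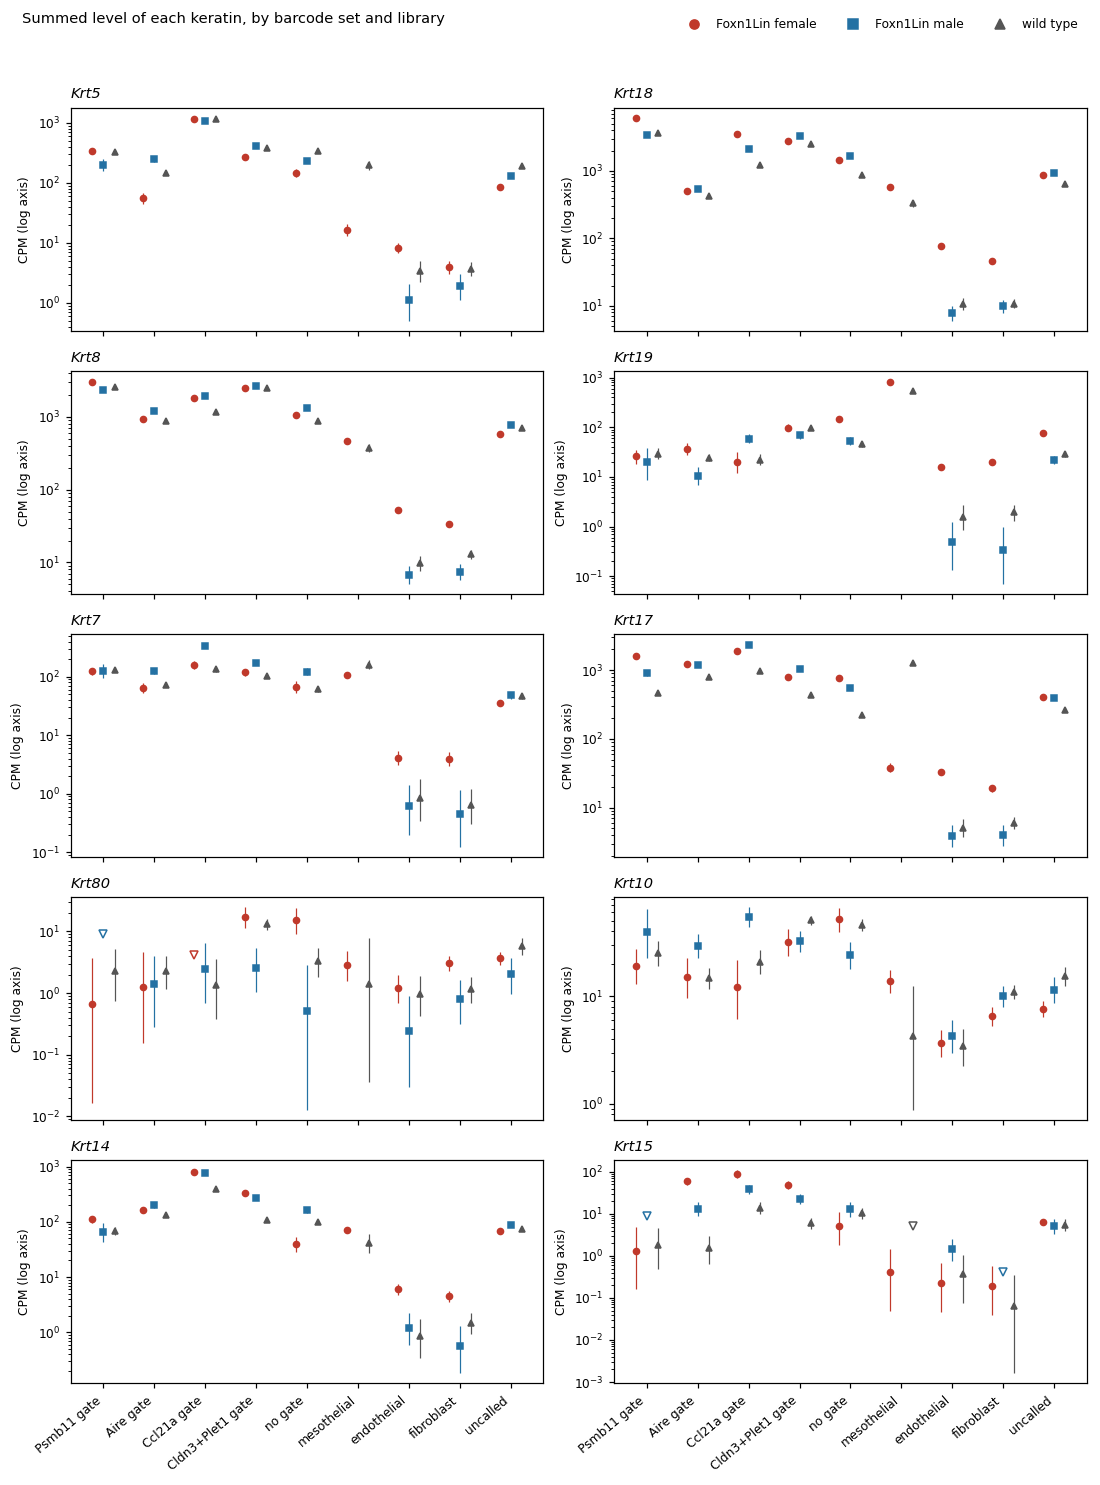
Summed level of each keratin (CPM, log axis) in each gate, in epithelial barcodes outside the gates, in mesothelial, endothelial and fibroblast barcodes and in uncalled barcodes, 1 point per library with its exact 95% Poisson interval. Open triangles mark the upper bound where no UMI was found. Krt5 and Krt14 peak in the Ccl21a gate and Krt18 in the Psmb11 gate in all 3 libraries. In Foxn1Lin male, without the barcode richest in Krt18 of each gate, Krt18 was at 3065 CPM in the Psmb11 gate and 3226 in the Cldn3+Plet1 gate.

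The first comparison asked how the keratins of Psmb11-expressing barcodes differ from those of the other epithelial barcodes. Krt18 and Krt8 were higher in the Psmb11 gate, and Krt15, Krt14 and Krt19 were lower. Krt18 was at 5981, 3401 and 3590.1 CPM against 1617, 2048 and 1329, and Krt8 at 3051, 2322 and 2609 CPM against 1469, 1809 and 1431. Both were higher in the gate in 3 of 3 libraries. In edgeR's quasi-likelihood test on summed counts with the library as a block, with Benjamini-Hochberg adjustment over 13406 genes, Krt18 rose (log2 fold change 1.33 ± 0.23 (SE), adjusted p = 0.00535), as did Krt8 (log2 fold change 0.74 ± 0.18 (SE), adjusted p = 0.0189). The call of Krt8 was lost without Foxn1Lin female (adjusted p = 0.0737), without the wild type (0.0759) or without the library block (0.0902). Krt14 was at 111, 66.4 and 69.5 CPM against 266, 299 and 143, lower in the gate in every library (log2 fold change -1.44 ± 0.24 (SE), adjusted p = 0.00456). Krt19 was at 25.9, 19.7 and 29.3 CPM against 87.5, 53.1 and 59.0, likewise lower in each (log2 fold change -1.38 ± 0.23 (SE), adjusted p = 0.00476). Krt15 had 2, 0 and 4 UMIs in the gate, or 1.33, 0 and 1.81 CPM against 42.3, 17.1 and 7.58, and was lower (adjusted p = 0.00409), but with so few UMIs it passed the filter on low counts through the other barcodes, and its fold change is uncertain. In all, 5 of the 9 members tested changed, 2 up and 3 down, where 25.1% of all genes tested were called, 8.22% higher and 16.9% lower. Krt5, Krt7, Krt17 and Krt10 did not pass the test (log2 fold changes from -0.37 to 0.25), and Krt5 was at 342, 202 and 329.9 CPM against 252, 419.8 and 394, above the rest in Foxn1Lin female alone. Krt80 did not pass the filter on low counts.

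Other keratins and the proteins that hold or regulate keratin filaments were read from gene lists beside the members. Of 4 other type II keratins tested in the Psmb11 gate, 3 were lower, and of 5 other type I keratins 4 were lower. Krt16, a keratin of activated epidermis, was at 4.64, 2.46 and 0.903 CPM against 136, 12.0 and 30.7, and Krt20, of gut and urothelium, at 1.33, 0 and 1.35 CPM against 40.4, 64.9 and 24.7. Both were lower in the gate in every library and had at most 7 UMIs per library there. The keratins counted here were few in the gate and passed the filter on low counts through the other barcodes, so their counts are no support for a direction. Of 8 tested basal and suprabasal epithelial genes, 7 were lower and 0 higher (median log2 fold change -3.46 against -0.07 over all genes tested), among them Krtdap, a keratinocyte differentiation gene with at most 4 UMIs per library in the gate, to which the same limit applies. Among 7 other intermediate filament genes, Synm, which encodes synemin, was the sole one higher (426, 145 and 449.9 CPM against 21.996, 34.8 and 32.1, log2 fold change 3.43), and Prph (peripherin), Vim (vimentin) and Lmna (lamin A/C) were lower. Of 10 desmosome genes, whose products anchor keratin filaments at cell junctions, Dsc3 and Dsp rose (1.17 and 0.74) and Pkp2 and Dsg2 fell (-1.47 and -1.40). All 3 parathyroid markers tested were lower in the Psmb11 gate, and of 9 hematopoietic markers 4 were lower and 2, the T cell genes Lck and Cd3e, higher. Their part in the result was not tested. Without barcodes with a Ptprc UMI, which left 44, 13 and 64 in the gate, 5 of 9 members were called. Without the 6, 3 and 2 barcodes called parathyroid, 5 of 9 members were called, as before.

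In the Aire gate, against the other epithelial barcodes, Krt18, Krt5, Krt19, Krt8 and Krt7 were lower. No member was higher, except that Krt17 was with barcodes thinned to 2000 UMIs (log2 fold change 0.63, adjusted p = 0.0196). Krt18 was at 511, 539 and 430.0 CPM against 3624, 2836 and 2030.1, with no overlap between the sets (log2 fold change -2.52 ± 0.13 (SE), adjusted p = 0.000559). Krt8 was at 952, 1215 and 893 CPM against 2241, 2118 and 1824 (log2 fold change -1.06 ± 0.10 (SE), adjusted p = 0.00152). Krt5 was at 56.2, 248 and 147 CPM against 359, 478 and 477 (log2 fold change -1.78 ± 0.31 (SE), adjusted p = 0.00845), and a single barcode held 62.6% of its UMIs in the gate in Foxn1Lin male, without which its level there was 96.95 CPM. Each of these 3 keratins was lower in the gate in every library. Krt19 was at 36.6, 10.6 and 24.5 CPM against 84.5, 69.3 and 67.4 (log2 fold change -1.75 ± 0.32 (SE), adjusted p = 0.00961), and Krt7 at 65.0, 127 and 72.8 CPM against 116, 171 and 99.1 (log2 fold change -0.60 ± 0.12 (SE), adjusted p = 0.0147), by the same test over 14960 genes. The call of Krt7 was lost without Foxn1Lin female (adjusted p = 0.0515), without the wild type (0.0658), without the library block (0.207) and with thinning (0.064). These 5 of 10 members compare with 40.4% of all genes called, 20.4% higher and 20.0% lower. Krt17, at 1226, 1191 and 806 CPM against 1139, 1029 and 422, was above the other barcodes in each library without passing the test (log2 fold change 0.38 ± 0.17 (SE), adjusted p = 0.141), and Krt14 had a log2 fold change of -0.47 ± 0.16 (SE) (adjusted p = 0.069). Krt15 went opposite ways, at 59.3, 13.4 and 1.51 CPM against 21.0, 17.3 and 8.97.

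Of 14 other type II keratins tested, 3 were higher and 2 lower, and of 9 other type I keratins 5 were higher and 1 lower, against the 20.4% and 20.0% above, so that the type II share was near that of all genes. The hair keratin Krt83 was at 6.31, 12.9 and 11.7 CPM against 0.482, 0.413 and 0.215 (log2 fold change 4.83), and the corneal keratin Krt12 at 6.31, 18.9 and 5.85 CPM against 1.93, 1.03 and 0.359 (3.26). Outside the gate, each had at most 8 UMIs per library, so both passed the filter on low counts through the gate in which they are high. The counts of other keratins above include such genes, so they are no support for a direction. The type II keratins Krt6a and Krt1 fell (-4.60 and -1.56), as did the type I keratin Krt23 (-1.18). Of 10 desmosome genes 6 were lower and 1 higher, and of 7 hemidesmosome and plakin genes 4 were lower and 1 higher. Perp, a desmosomal membrane protein, was at 62.5, 94.1 and 61.9 CPM against 277, 376 and 309 (-2.20), and Dsp, the plakin that holds keratin at the desmosome, at 124, 194 and 140.0 CPM against 563, 451 and 440.5 (-1.72). Dsg2 and Col17a1 rose (1.26 and 1.86). Vim and Prph, filaments of mesenchymal and neural cells, were higher, Vim at 284, 381 and 211 CPM against 84.8, 59.2 and 28.1 (2.41), and Synm was lower (-3.74). Of 9 transcription factor genes known to act on keratin promoters 6 were lower, among them Klf5 (-2.01) and Klf4 (-1.54), and 1, Grhl3, was higher (1.61). Hematopoietic markers moved with the gate, 5 of 10 of them higher and their summed level at 1483, 1222 and 1254 CPM, against 820.2, 554 and 498 CPM over all epithelial barcodes. Their part in the result was not tested. When barcodes with a Ptprc UMI were left out, 6 of 9 members tested were lower, Krt10 being added to the 5.

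The Ccl21a gate held the highest levels of Krt5 and Krt14. Krt5 was at 1150.3, 1063 and 1154 CPM against 113, 214 and 249, and Krt14 at 799, 754 and 389.8 CPM against 119, 148 and 89.2. Both were higher in the gate in 3 of 3 libraries, and the levels inside exceeded all those outside. Krt5 (log2 fold change 2.65 ± 0.25 (SE), adjusted p = 0.00921) and Krt14 (log2 fold change 2.44 ± 0.16 (SE), adjusted p = 0.00428) passed edgeR's quasi-likelihood test over 14031 genes. Krt17 was at 1897, 2325 and 956 CPM against 1027, 712 and 452 (log2 fold change 1.26 ± 0.19 (SE), adjusted p = 0.0208), and its call was lost without Foxn1Lin male (adjusted p = 0.0975). Krt15 was at 87.9, 38.8 and 14.1 CPM against 21.1, 9.41 and 5.63 (log2 fold change 1.85 ± 0.22 (SE), adjusted p = 0.0129), from 79, 62 and 41 UMIs in 12, 8 and 15 barcodes. Krt7 was at 160.2, 334 and 134 CPM against 91.2, 105 and 84.3 (log2 fold change 1.09 ± 0.22 (SE), adjusted p = 0.0413), and its call was lost without Foxn1Lin female (adjusted p = 0.0513) or Foxn1Lin male (0.0976). So 5 of 9 members tested were higher and 0 lower, where 6.25% of all genes were called, 2.41% higher and 3.84% lower. Of markers of other cells, 3 of 10 hematopoietic and 2 of 3 parathyroid genes were lower in the gate, and their part in the result was not tested. Without barcodes with a Ptprc UMI, and without the parathyroid barcodes, 5 of 9 members were called. Without the library block, 2 of 9 passed, Krt5 and Krt14. Krt19 was lower without Foxn1Lin male (log2 fold change -1.64, adjusted p = 0.0365) and with barcodes in exactly 1 gate (-1.04, 0.0339). Krt8, at 1836, 1919.8 and 1177 CPM against 1894, 1815 and 1637, and Krt18, with a log2 fold change of 0.03 ± 0.18 (SE), did not pass the test (adjusted p = 0.754 and 0.957).

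Among the transcription factor genes of keratin promoters, Trp63, which encodes the basal epithelial regulator p63, was the 1 called of 9 tested in the Ccl21a gate (170.2, 242 and 374 CPM against 89.3, 123 and 147, log2 fold change 1.13). Of 10 desmosome genes Pkp1 and Dsc3 rose (0.76 and 0.75) and Pkp2 fell (-0.97). Of the basal and suprabasal genes 1 of 9, Sbsn, was lower (-1.45). None of 8 other type II and 7 other type I keratins, 7 hemidesmosome and plakin genes or 7 other intermediate filament genes passed the test in edgeR.

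**Figure D3:**
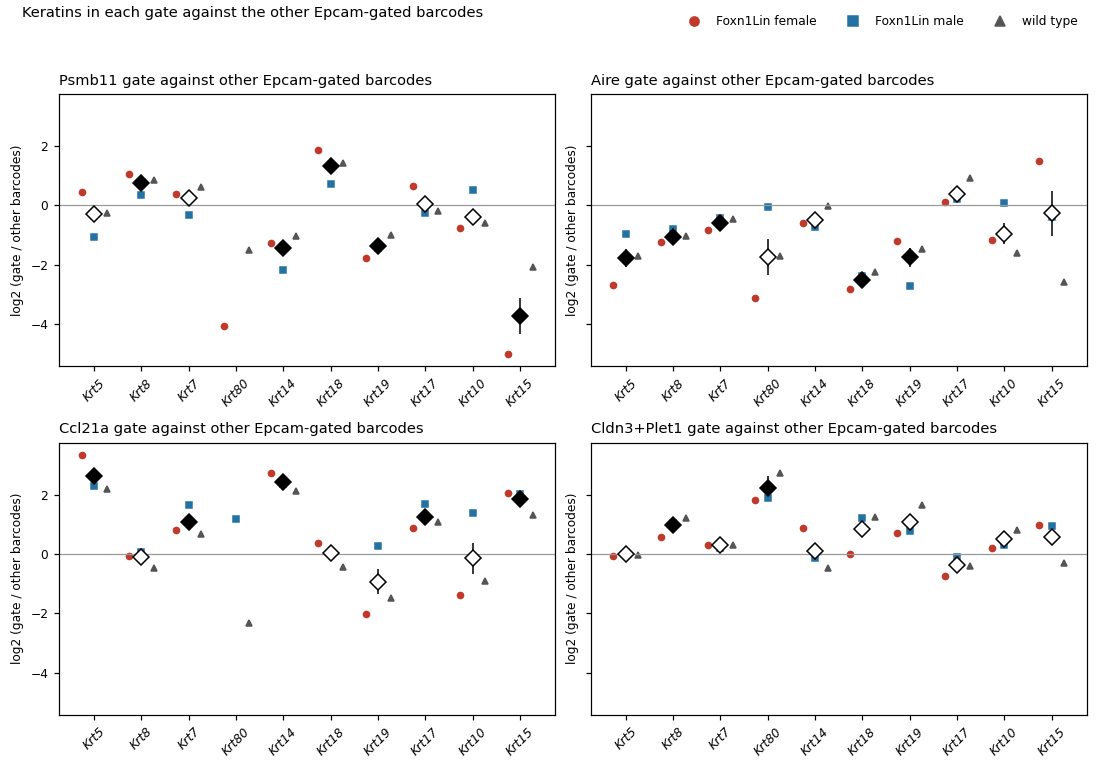
Log2 ratio of each keratin between a gate and the other epithelial barcodes, with the 4 gates in separate panels. Black diamonds are fitted log2 fold changes with their SE (filled where the adjusted p is under 0.05), and colored points are the ratio of CPM in each library where both sets had a UMI. Krt18 lies above 0 in the Psmb11 gate and below 0 in the Aire gate in all 3 libraries, and Krt5 and Krt14 lie above 0 in the Ccl21a gate in all 3.

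In the Cldn3+Plet1 gate, Krt80 and Krt8 were higher than in the other epithelial barcodes. Krt8 was at 2468, 2689 and 2475 CPM against 1653, 1301 and 1051 (log2 fold change 0.98 ± 0.15 (SE), adjusted p = 0.0277). Krt80 was at 17.2, 2.57 and 13.0 CPM against 4.87, 0.698 and 1.96, from 28, 7 and 91 UMIs in the gate (log2 fold change 2.24 ± 0.39 (SE), adjusted p = 0.035), by edgeR's test over 14515 genes. Both were higher in 3 of 3 libraries. Krt80 was filtered out for low counts in the Psmb11 and Ccl21a comparisons and may have passed here through the sums of the gate where it is high, so its call is a weak one. Both calls depended on having all the libraries and the library block, without which neither passed (adjusted p = 0.277 for Krt80 and 0.124 for Krt8). Without barcodes with a Ptprc UMI, Krt8 alone was called and Krt80 was filtered out. Krt80 lost its call without Foxn1Lin female (adjusted p = 0.114), Foxn1Lin male (0.086) or the wild type (0.218), and Krt8 did so as well (0.0501, 0.113 and 0.0811). The 2 of 10 members compare with 5.21% of all genes called, 3.22% higher and 1.98% lower. Krt19, at 98.8, 68.8 and 98.2 CPM against 60.4, 40.01 and 31.3 (log2 fold change 1.09 ± 0.23 (SE), adjusted p = 0.0587), and Krt18 (log2 fold change 0.87 ± 0.26 (SE), adjusted p = 0.132) were above the other barcodes in 3 of 3 libraries without passing the test, and both passed it with DESeq2 (adjusted p = 0.00268 and 0.00861). Krt5 was at 269, 412 and 380.3 CPM against 278, 404 and 389.8 (log2 fold change 0.01 ± 0.10 (SE)), but in the barcodes of this gate that were not in the Ccl21a gate it was at 123, 276 and 297 CPM. Krt14 lay on both sides, at 336, 271 and 109 CPM against 182, 295 and 149.

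Of 9 basal and suprabasal epithelial genes 4 were higher and 0 lower (median log2 fold change 1.64 against -0.03 over all genes tested). Ivl, which encodes involucrin of the cornified envelope, was at 25.8, 8.46 and 16.3 CPM against 0.244, 0.465 and 0.978, with 1, 2 and 12 UMIs outside the gate, so that it passed the filter through the gate. Dmkn, a gene of differentiating keratinocytes, was at 223, 98.2 and 94.6 CPM against 86.0, 29.1 and 28.6 (1.64). Of 10 desmosome genes Dsg3, Pkp2 and Jup rose (2.79, 2.45 and 0.71) and Dsc3 fell (-1.01). Of 9 transcription factor genes of keratin promoters 4 were higher, among them Elf3 (1.99), Ovol1 (1.64) and Klf5 (1.44), and Trp63 was lower (33.1, 82.8 and 69.4 CPM against 129, 193 and 245, -1.62). Krt23, a type I keratin of simple and glandular epithelia, was the 1 other type I keratin called, at 95.7, 28.0 and 74.6 CPM against 10.96, 2.56 and 9.05 (3.19). The summed level of parathyroid markers was 9391, 64.4 and 7149 CPM in the gate, and with the parathyroid barcodes left out 2 of 10 members were called, as before.

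Set directly against each other, without the barcodes in both gates, the Cldn3+Plet1 and Ccl21a gates differed in 6 of 9 members tested, where 16.2% of 11746 genes were called, 10.0% higher and 6.22% lower. Krt5 was at 123, 276 and 297 CPM against 1095, 1102 and 1106 in the Cldn3+Plet1 and Ccl21a gates (log2 fold change -2.31 ± 0.27 (SE), adjusted p = 0.00196), and Krt14 at 230.4, 132 and 76.5 CPM against 712, 706 and 366 (log2 fold change -2.09 ± 0.20 (SE), adjusted p = 0.00107). Krt17 was at 718, 809 and 379 CPM against 2062, 2479 and 905 (log2 fold change -1.45 ± 0.17 (SE), adjusted p = 0.00191). These 3 keratins were lower in the Cldn3+Plet1 gate in every library, and each kept its call when any 1 library was left out, but Krt17 lost it without the library block (adjusted p = 0.0658). Krt15 was lower too (log2 fold change -1.14 ± 0.29 (SE), adjusted p = 0.0349), but with any 1 library left out its adjusted p was 0.0768 to 0.137. Krt19 was at 109, 62.9 and 103 CPM against 18.4, 41.9 and 17.3, higher in each (log2 fold change 1.88 ± 0.41 (SE), adjusted p = 0.0196, or 0.0732 without Foxn1Lin female), and Krt8 at 2442, 2699.7 and 2517 CPM against 1609.5, 1565 and 995.4 (log2 fold change 0.92 ± 0.20 (SE), adjusted p = 0.0197, or 0.111 without Foxn1Lin male and 0.0617 without the wild type). Without the library block, 3 of 9 members passed, 1 higher and 2 lower, so Krt19 and Krt8 did not both keep their call. Krt80 had 28, 5 and 87 UMIs in the Cldn3+Plet1 gate and 0, 2 and 0 in the Ccl21a gate, too few for the test. Of 9 transcription factor genes 4 were higher in the Cldn3+Plet1 gate, led by Ovol1 and Elf3 (3.41 and 2.35), and Trp63 and Grhl2 were lower (-2.48 and -0.83). Of the hemidesmosome and plakin genes, Dst, Itga6 and Itgb4, whose products tie basal keratin filaments to the basement membrane, were lower (-1.26, -0.96 and -0.76), and Evpl and Col17a1 were higher (2.74 and 1.40). Krt23 and Krt20 were higher too, but Krt23 had 2, 3 and 3 UMIs and Krt20 0, 12 and 2 in the Ccl21a gate. Of the marker lists, 4 of 7 hematopoietic and 3 of 3 parathyroid genes were higher in the Cldn3+Plet1 gate, and without the parathyroid barcodes 6 of 9 members were called, as before.

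KRT5 and KRT8 are often used as a pair of markers of medulla and cortex, so their joint detection was counted in thinned barcodes. Over all epithelial barcodes, Krt8 without Krt5 was found in 62.2%, 55.2% and 49.5%. Both were found in 17.6%, 24.2% and 24.5%, and Krt5 without Krt8 in 3.32%, 5.76% and 9.23%. Most barcodes with Krt5 thus also had Krt8, in every library, as did most epithelial barcodes. The number with both was near that expected if they fell independently, as given below. In the Ccl21a gate, both were found in 53.6%, 56.5% and 55.2%, and Krt5 alone in 12.5%, 12.9% and 26.6%. In the Psmb11 gate, no barcode had Krt5 alone (0 of 62, 13 and 70, where 3 barcodes of the total would be 4.84%, 23.1% and 4.29%, and the exact 95% interval reaches 5.78%, 24.7% and 5.13%), and both were found in 22.6%, 46.2% and 31.4%. In the Aire gate, neither was found in 27.3%, 21.7% and 25%, the highest shares of the 4 gates. In the Cldn3+Plet1 gate both were found in 18.8%, 19.8% and 24.7%, and Krt8 alone in 72.9%, 71.7% and 62.8%. A barcode with no UMI at this depth can still express the gene.

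**Figure D4:**
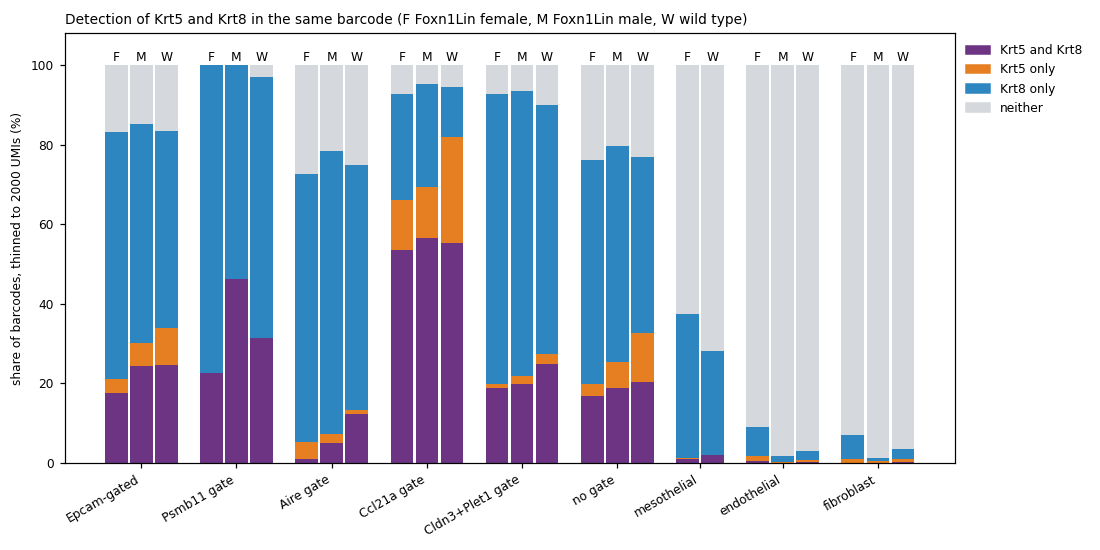
Share of barcodes (y axis, percent, after thinning to 2000 UMIs) with Krt5 and Krt8, Krt5 only, Krt8 only or neither, as stacked bars per set and library. The part with both is largest in the Ccl21a gate, between 53.6% and 56.5%, and Krt5 without Krt8 takes at most 9.23% of all epithelial barcodes.

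Co-detection was also counted for all 45 pairs of members and set against the number of barcodes expected if 2 keratins fell independently within a library. For 20 pairs at least 10 barcodes were expected in each library. Krt5 and Krt14, a known filament pair, were found together in 30, 48 and 88 barcodes, and the ratio of observed to expected was 1.91, 1.63 and 1.67. This was the sole pair with a ratio of at least 1.5 in each library. Krt14 and Krt17, both type I, had ratios of 1.47, 1.499 and 1.83, and Krt5 and Krt7, both type II, of 1.29, 1.73 and 1.16. Krt8 and Krt18, the pair of simple epithelia, had ratios of 1.07, 1.08 and 1.10. The high shares of both limit how far this ratio can rise, but it lay under that limit. Krt5 and Krt8 stood near 1 (1.05, 1.02 and 0.981). Krt19 and Krt17 were the sole pair under 1 in all libraries (0.807, 0.903 and 0.812). In all, 12 of the 20 pairs were above 1 in each library. These ratios are descriptions, since barcodes of 1 library are not replicates. Within the Ccl21a gate the ratio of Krt5 and Krt14 was 1.22, 1.12 and 1.10. Without thinning, 31 of 32 pairs were above 1 in each library and none reached 1.5 in each.

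**Figure D5:**
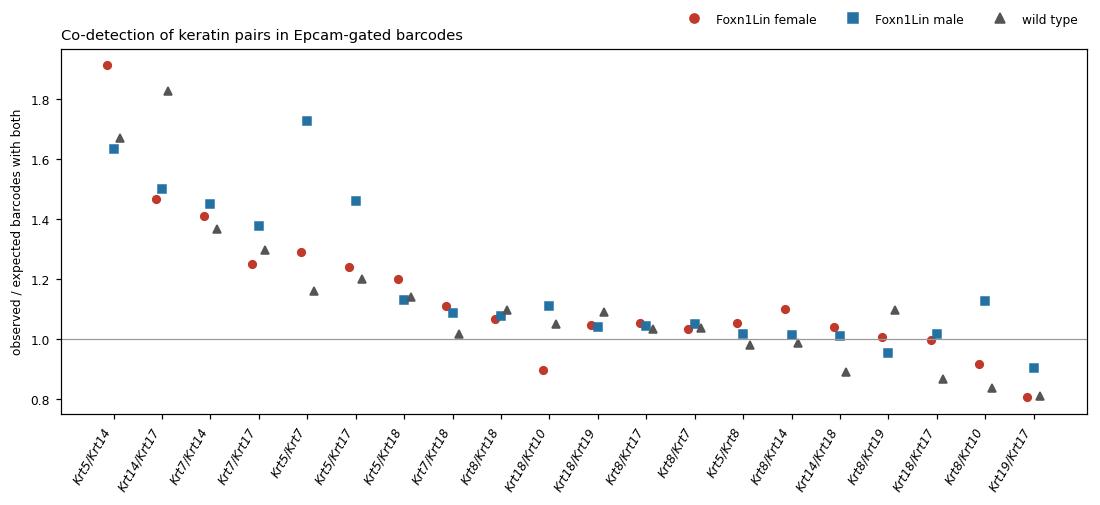
Ratio of observed to expected barcodes with both keratins of a pair (y axis) in epithelial barcodes thinned to 2000 UMIs, for the 20 pairs with at least 10 expected barcodes in each library, 1 point per library. Krt5 with Krt14 and Krt14 with Krt17 have the highest medians over the libraries, and most pairs with Krt8 or Krt18 lie near 1.

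Mesothelial barcodes were those with at least 2 UMIs of Upk3b, a marker of the mesothelium that covers inner organs, outside the epithelial gate, which held a further 8, 1 and 4 such barcodes. They numbered 403 in Foxn1Lin female, none in Foxn1Lin male and 50 among the wild-type barcodes, so the test used the first and the last. Of 5 tested mesothelial markers beside Upk3b 5 were higher than in epithelial barcodes, as were 7 of 7 fibroblast markers and 5 of 8 endothelial markers, whose part in the result was not tested. Krt19 was at 836 and 547 CPM against 44.6 and 55.0 (log2 fold change 3.97 ± 0.34 (SE), adjusted p = 0.000168) and was found in 60.5% and 50.0% of thinned mesothelial barcodes. Its levels there exceeded those in every epithelial set. Krt18 was at 576 and 329.6 CPM against 2757 and 1594 (log2 fold change -2.07 ± 0.21 (SE), adjusted p = 0.000402), and Krt8 at 463 and 378 CPM against 1888 and 1571 (log2 fold change -1.84 ± 0.22 (SE), adjusted p = 0.000736), by edgeR's quasi-likelihood test over 15075 genes. Both were lower than in the epithelium but were found in 46.9% and 34.0% (Krt18) and 37.2% and 28.0% (Krt8) of the barcodes, above their endothelial and fibroblast shares in the same libraries. Krt14 (log2 fold change -1.47 ± 0.26 (SE), adjusted p = 0.00488) and Krt5 (log2 fold change -2.30 ± 0.64 (SE), adjusted p = 0.0321) were lower. With library totals in place of TMM, which moved the median over all genes from -0.09 to -0.31, 5 members were called, and Krt5 was not (adjusted p = 0.0531). Krt5 also lost its call without barcodes with a Ptprc UMI (0.0558), and without the library block both Krt5 and Krt14 did (0.272 and 0.0664). Krt15 had 2 and 0 UMIs, and its ratio to the epithelial level in Foxn1Lin female was 0.0127 (95% interval 0.00152 to 0.0464, counting error only). These 6 of 10 members, 1 higher and 5 lower, compare with 26.8% of all genes called, 11.9% higher and 14.9% lower, and Krt15 among them passed the filter on low counts through the epithelial sums. With doublets removed, 8 were called, Krt7 being higher (log2 fold change 0.71, adjusted p = 0.0427) and Krt10 lower (-1.26, 0.0152) beside the 6. Krt7 was at 109 and 162 CPM against 98.6 and 91.9 and did not pass the test (adjusted p = 0.0987).

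In the wild type, a single mesothelial barcode held 98.9% of the Krt17 UMIs and 97.9% of the Krt5 UMIs of the set. It also held 57.9% of the Krt8, 59.6% of the Krt7 and 47.0% of the Krt18 UMIs, and it had 28 Epcam UMIs and had missed the epithelial gate by 1 Pecam1 UMI. Without it, Krt8 was at 173 CPM, Krt18 at 189.9 CPM and Krt19 at 483 CPM. Krt7 was then at 71.0 CPM, under its epithelial level of 91.9 CPM in the wild type. Krt17 was at 38.3 and 1252 CPM against 1168 and 528, and without that barcode its wild-type level was 15.4 CPM. In Foxn1Lin female, 1 mesothelial barcode with 8 Epcam UMIs and 1 Pecam1 UMI held 50% of the Krt5 and 64.2% of the Krt10 UMIs of the set. Without that one, Krt5 was at 8.31 CPM and Krt10 at 4.98 CPM there. When mesothelial barcodes with any Epcam UMI were left out, a choice made after seeing the data that left 374 and 47, Krt17 had a log2 fold change of -6.08, Krt5 of -6.31 and Krt19 of 3.89. The barcodes left out include both barcodes above, so these values are a description. Of 10 desmosome genes 8 were lower in mesothelial barcodes, and Trp63 (4.97 and 7.10 CPM against 104 and 182) and Grhl2 (3.31 and 4.26 CPM against 47.0 and 88.9) were among the 5 of 10 transcription factor genes that were lower (-4.26 and -3.77). Klf4 was the 1 of them that was higher (2.69), and Vim was at 1433 and 1310.0 CPM against 118 and 75.7 (4.06).

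Barcodes with at least 2 Krt10 UMIs, 19, 25 and 87, were compared with the other epithelial barcodes for the other 9 members, since Krt10 itself chose them. Their median depths were 21590, 29477 and 36734 UMIs, above those of all epithelial barcodes. None of the other 9 members passed edgeR's test (0 at an adjusted p under 0.05, 1 at an unadjusted p under 0.05, and 0 by DESeq2), and 0.0962% of 14555 genes were called, 0.0412% higher and 0.0550% lower. The 1 was Krt80, at 36.1, 2.11 and 12.1 CPM against 6.05, 1.32 and 4.51 (log2 fold change 1.79 ± 0.51 (SE), adjusted p = 0.209). Of 8 basal and suprabasal epithelial genes 2 were higher, Ivl at 85.7, 24.2 and 30.8 CPM against 0.945, 0.330 and 0.772 (5, 2 and 12 UMIs, so that it passed the filter through the Krt10-rich set) and Calml3, a calmodulin-like gene of keratinocytes, at 88.0, 29.5 and 77.2 CPM against 10.6, 7.25 and 13.6 (2.61). With Foxn1Lin female or Foxn1Lin male left out, with doublets removed or without barcodes with a Ptprc UMI, 0 genes of all those tested were called. With library totals in place of TMM, 42 genes were called, 12 of them higher, against 14 with 6 higher.

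For each member, the genes most like it were sought over 15 sums, the 4 gates and the ungated barcodes of each library, by Pearson's correlation of log2(CPM + 10) among 14842 genes. The sums share libraries and, through the overlap of gates, barcodes, so the correlations are descriptions. For Krt8 they were S100a11 (r = 0.93), Gnai2 (r = 0.92) and Krt18 (r = 0.90), the last being the sole member named for another member. For Krt18 they were Sfn (r = 0.95), Cltb (r = 0.94) and Crip2 (r = 0.94), for Krt5 Bst2 (r = 0.86), Sox4 (r = 0.85) and Nedd9 (r = 0.85), and for Krt7 H2-Q4 (r = 0.88), Ifngr1 (r = 0.86) and Trim47 (r = 0.86). For Krt14 they were Rgs3 (r = 0.95), Gpx3 (r = 0.88) and Ifngr1 (r = 0.84), so that Krt7 and Krt14 had Ifngr1 in common. For Krt80 they were Ly6g6c (r = 0.96), AA986860 (r = 0.95) and Il25 (r = 0.93), for Krt19 Coq5 (r = 0.91) and Selenom (r = 0.85), and for Krt17 Hmgb1 (r = 0.87), Snrpg (r = 0.87) and Rbm8a (r = 0.85). For Krt10 they were Myadm (r = 0.86), Slc23a2 (r = 0.84) and Zfp37 (r = 0.81), and for Krt15 March9 (r = 0.88), 1700023F06Rik (r = 0.83) and Rexo5 (r = 0.83). Type II keratins held 34.9%, 39.9% and 46.6% of all keratin UMIs in epithelial barcodes, and 33.3%, 38.4% and 47.8% in the Ccl21a gate. Thinned epithelial barcodes had a median of 3, 3 and 2 members detected, and those of the Ccl21a gate 4, 5 and 3.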

How the data were processed

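Raw UMI counts were used as the authors deposited them, 1 value per gene and barcode, from Cell Ranger (7.01 in the submitters' processing notes) on mm10 (GRCm38) with reporter sequences added. Cell Ranger leaves out reads that map to several genes, which can lower keratins with close paralogs. Members, lists, gates and thresholds were chosen with earlier results of these data known. Doublets were not removed in the main analysis. Scrublet in scanpy 1.11.5 marked 0, 15 and 1 barcodes, so the 3.9% with the highest scores were removed as an alternative. The libraries shared 8, 14 and 3 barcode sequences. Total depth was 53366016, 33386621 and 61258534 UMIs.

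UMI counts were summed per library and barcode set (at least 10 barcodes) and tested with edgeR 4.0.16 (filterByExpr, TMM, quasi-likelihood F-test, library as block) in R 4.3.3. Sets of 1 library share its pool of mice, so p-values do not measure the spread between animals. They measure the spread of within-library differences over the libraries of each test, at most 3, with 2 residual degrees of freedom (1 for mesothelial barcodes). The test draws the variance of each gene toward that of all genes, so the p-values also lean on the spread of other genes. The SE is the log2 fold change divided by the square root of F. The script was checked on simulated data. Alternatives were DESeq2 1.42.0, library totals, no filter, no block, each library left out, removal of low-quality barcodes (1000 genes or fewer with 20% or more mitochondrial counts), doublets or barcodes with a Ptprc UMI, thinning, barcodes in 1 gate, doubled gate thresholds and, added later, removal of parathyroid barcodes (at least 10 Pth UMIs or any Gcm2 UMI). Named genes were all members, at most 3 called genes per list and direction with the largest fold change, and the 3 genes most like each member, of which 1 is not reported here. Shares and sums have exact 95% intervals from scipy 1.17.1.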

Additional observations from a re-analysis of the deposited data

Results flagged for a closer look

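Krt15 in the Aire gate lay on opposite sides of the other epithelial barcodes in 2 libraries. Its log2 ratio was 1.501 in Foxn1Lin female (94 UMIs in 9 barcodes of the gate, 36.2% of them in 1 barcode) and -2.57 in the wild type (8 UMIs). The 95% counting intervals of the ratios, 2.09 to 3.83 and 0.0711 to 0.342, lay beyond 1.5-fold in each direction. The difference between the libraries was not tested, since each is the only one of its group.

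Krt17 in mesothelial barcodes, against epithelial barcodes, had a log2 ratio of 1.24 in the wild type and -4.93 in Foxn1Lin female. In the wild type 871 of 881 UMIs were in 1 of the 50 barcodes. This difference between libraries was likewise not tested.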

How the results depend on the processing

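Of the refits of single members, 756 kept the side of the threshold, 39 passed it newly, 36 lost it and 0 reversed a call. A change of direction was looked for only where either fit called the member. Refits in which a member was filtered out are not counted. The number of members called moved by over 1.5 times as follows. The cause was not tested, except that leaving out a library leaves fewer samples. In the Psmb11 gate it was 9 with barcodes of exactly 1 gate, against 5, but this fit also lost Foxn1Lin male (8 barcodes left), without which alone it was 7. In the Ccl21a gate it was 2 without the library block, against 5. In the Cldn3+Plet1 gate it was 4 with DESeq2, with no filter or with barcodes of exactly 1 gate, 1 without barcodes with a Ptprc UMI and 0 without the block, against 2. With 1 library left out it ranged from 0 to 1 there, from 4 to 7 in the Psmb11 gate, from 4 to 7 in the Aire gate, from 4 to 5 in the Ccl21a gate and from 5 to 6 between the Cldn3+Plet1 and Ccl21a gates. Between the last 2 gates it was 3 without the block, against 6. For Krt10-rich barcodes the 1 called was Krt10, which chose the set, so that its call is no result. It was 0 with low-quality barcodes, doublets or barcodes with a Ptprc UMI removed, and 0 to 1 with 1 library left out. Pairs co-detected at 1.5 or more were 0 without thinning, against 1.

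Over all genes, thinning to 2000 UMIs took the number called from 3371 to 1143 in the Psmb11 gate, from 6044 to 2861 in the Aire gate and from 1907 to 806 between the Cldn3+Plet1 and Ccl21a gates. Exactly 1 gate gave 5070 (Psmb11, without Foxn1Lin male, where leaving out that library alone gave 4655), 2068 against 877 (Ccl21a) and 1802 against 756 (Cldn3+Plet1). No filter gave 1638 (Ccl21a), 1460 (Cldn3+Plet1) and 3138 (both gates), and no block gave 350, 119 and 1234. Removing doublets gave 1351 (Ccl21a) and DESeq2 1162 (Cldn3+Plet1). Leaving out Foxn1Lin female gave 1996 (Psmb11) and 157 (Cldn3+Plet1), leaving out Foxn1Lin male 379 (Ccl21a) and 187 (Cldn3+Plet1), and leaving out the wild type 3336 (Aire), 506 (Ccl21a) and 82 (Cldn3+Plet1). For Krt10-rich barcodes the count was 14, and 0 to 30 with 1 library left out, 373 with DESeq2, 661 with no filter, 42 with library totals or thinning, 6 without the block, 7 without low-quality barcodes and 0 without doublets or Ptprc. The library block pairs sets within a library. No paired analysis across the groups was possible because each group has 1 library. A mesothelial test with 1 library left out was not run, since no residual degree of freedom remains. Krt10 and Krt15 were above background in every library without thinning but not at 2000 UMIs, and Krt80 at neither.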
